A study of Mus musculus with 8 samples.

Results

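EpRas-only accessible chromatin regions were the sites at which a peak was called in every library of Ras-transformed mammary epithelial cells and in none of the parental cells. The peaks of 8 FAIRE-seq libraries were merged wherever they shared at least 1 bp, which gave 37230 regions, and 736 of them were called in all 4 EpRas libraries and in 0 of the 4 EpH4 libraries. These members made up 1.98% of all regions, and since they were selected on these calls, the difference in calls between the lines was a property of the selection and was not tested. The mirror set, called in all 4 EpH4 libraries and in 0 EpRas libraries, held 280 regions, and 4259 regions were called in all 8 libraries.

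FAIRE (formaldehyde-assisted isolation of regulatory elements) recovers DNA that is not crosslinked to protein, so that peaks mark accessible chromatin. EpH4 is a mouse mammary gland epithelial cell line, and EpRas cells are EpH4 cells transformed with H-Ras (G12V). Each line was left untreated or was given 1 ng/ml TGF-β3 for 8 days, with 2 replicate libraries in each of the 4 groups. EpH4 cells were cultured in 10% fetal bovine serum and EpRas cells in 4%, so the effects of Ras and of serum cannot be told apart, and whether EpRas was derived from 1 clone was not given in the sources used here.

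The lists held 10821 to 17927 peaks in EpH4 and 13784 to 27337 in EpRas libraries, and their sequencing depth was unknown. A site that missed the peak limit could therefore not be told from a closed one. Promoter peaks were found for 4 to 7 of 12 epithelial marker genes in EpH4 libraries and for 1 to 6 in EpRas libraries. No epithelial marker had one in all 8 libraries, and *Epcam*, *Krt19* and *Ocln* had none in any. Of the 6 myoepithelial and basal markers, *Krt14* had a promoter peak in all 8 libraries and the others in none. Of the 4 endothelial markers 0 had a promoter peak in any library, of the 8 fibroblast markers at most 2 did, and of the 6 blood and immune markers at most 1 did.

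Oncogenic Ras acts through the MAP kinase cascade, whose nuclear end points include the AP1 factors (dimers of Fos and Jun proteins) and ETS factors. AP1 binds the letters TGAGTCA or TGACTCA, often in enhancers far from genes. ETS factors of the PEA3 group, among them Etv1, Etv4 and Etv5, are themselves induced by Ras in many epithelial cells, and Spry and Spred proteins feed back to restrain the pathway.

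The sequences of 8 regions are given as examples, and AP1 letters were commoner in the member windows shown than in the members as a whole. They are 200 bp windows at the region midpoints on the plus strand of mm10 (GRCm38), read from the reference genome, with capitals for AP1 letters, for the forkhead (FOX) letters TGTTTAC, for the E-box CAGGTG and for the TEAD letters ACATTCC, on either strand. The first 3 were the members with the highest mean scores, the Mgat5 member held the most AP1 letters, and the members in Cdh1, Etv5 and Wwtr1 lay in genes of the lists described below. Each of the last 3 held AP1 letters. Members away from promoters at the list genes Spry1, Etv1, Nfib, Adam12 and Adam19 held none and are not shown. The final line is an EpH4-only region in the same gene as the Cdh1 member. The windows were chr9:60848819-60849018, chr9:60782525-60782724, chr19:21814561-21814760, chr1:127257116-127257315, chr8:106619699-106619898, chr16:22389224-22389423, chr3:57504887-57505086 and chr8:106616085-106616284, in the order of the lines.
Uaca intron: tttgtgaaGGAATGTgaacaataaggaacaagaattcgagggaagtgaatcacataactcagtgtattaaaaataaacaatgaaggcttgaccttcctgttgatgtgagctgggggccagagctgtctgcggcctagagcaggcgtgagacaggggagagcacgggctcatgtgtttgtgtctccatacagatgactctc
Uaca upstream: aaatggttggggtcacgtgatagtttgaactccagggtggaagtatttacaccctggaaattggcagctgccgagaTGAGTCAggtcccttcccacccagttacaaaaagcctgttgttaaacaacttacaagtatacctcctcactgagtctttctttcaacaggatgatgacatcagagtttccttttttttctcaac
Cemip2 intron: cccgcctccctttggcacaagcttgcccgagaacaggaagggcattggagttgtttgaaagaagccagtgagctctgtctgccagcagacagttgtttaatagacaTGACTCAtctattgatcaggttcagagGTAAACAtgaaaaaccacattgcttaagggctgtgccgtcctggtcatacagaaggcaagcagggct
Mgat5 intron: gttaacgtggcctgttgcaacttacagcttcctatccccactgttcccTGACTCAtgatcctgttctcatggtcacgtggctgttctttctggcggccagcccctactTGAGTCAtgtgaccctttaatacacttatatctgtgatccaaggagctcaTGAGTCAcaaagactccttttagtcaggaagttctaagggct
Cdh1 intron, member: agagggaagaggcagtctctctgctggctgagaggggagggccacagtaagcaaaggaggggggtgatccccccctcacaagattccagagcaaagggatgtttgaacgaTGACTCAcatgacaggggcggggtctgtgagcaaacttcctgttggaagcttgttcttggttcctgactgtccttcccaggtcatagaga
Etv5 intron: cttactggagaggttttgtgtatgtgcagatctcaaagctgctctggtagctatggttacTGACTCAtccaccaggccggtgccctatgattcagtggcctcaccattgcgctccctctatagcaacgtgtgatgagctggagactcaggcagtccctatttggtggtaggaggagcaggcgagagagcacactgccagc
Wwtr1 intron: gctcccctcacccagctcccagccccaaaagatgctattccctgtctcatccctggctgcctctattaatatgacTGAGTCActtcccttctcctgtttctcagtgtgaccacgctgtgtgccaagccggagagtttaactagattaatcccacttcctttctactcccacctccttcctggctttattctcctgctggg
Cdh1 intron, EpH4-only: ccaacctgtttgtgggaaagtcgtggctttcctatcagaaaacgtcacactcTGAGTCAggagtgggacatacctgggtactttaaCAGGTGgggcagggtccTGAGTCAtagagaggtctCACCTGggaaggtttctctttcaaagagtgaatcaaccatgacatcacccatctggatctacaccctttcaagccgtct

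The Uaca intron window held 1 TEAD sequence and no AP1 sequence, whereas the Mgat5 window held 3 AP1 sequences and each of the other member windows 1. The Cemip2 window also held 1 FOX sequence. The EpH4-only window in *Cdh1* held 2 AP1 and 2 E-box sequences, and the member window of the same gene 1 AP1 sequence and no E-box.

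Most members lay away from promoters, and AP1 was the commonest of 14 motifs searched in them. Of the 570 distal members, those with a midpoint more than 2 kb from every annotated transcription start site, 325 held AP1 letters in the 300 bp around the midpoint (57.02%, Wilson 95% interval 52.9 to 61.0). This was more than in all 25424 distal regions (44.2%) and in the 222 distal EpH4-only regions (41.0%, 34.7 to 47.6). It did not exceed the 56.8% of the distal regions called in all 4 EpRas libraries, members included, or the 54.5% of those called in all 8 libraries by more than the interval. In control windows 10 kb away that touched no peak, AP1 letters were found in 5.60%. Regions are not replicates, so shares were not tested, and the intervals cover counting error only.

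Besides AP1, the E-box, FOX, NF-κB, TEAD, ETS, CTCF and AP2 (GCCNNNGGC) shares of the distal members lay outside the intervals of EpH4-only regions. The E-box CAGGTG is bound by the EMT factors of the Snail and Zeb families among others, and was found in 11.4% of distal members (9.05 to 14.3). It was found in 18.9% of all distal regions, in 16.6% of those called in all 4 EpRas libraries and in 41.9% of EpH4-only regions (35.6 to 48.5). The control windows of the members held it in 18.4%. FOX letters, bound by forkhead factors, were found in 9.30% of distal members (7.18 to 11.96), compared with 4.96% of all distal regions, 5.12% of those called in all 4 EpRas libraries, 3.15% of EpH4-only regions (1.54 to 6.36) and 3.07% of the members' control windows.

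NF-κB letters were found in 2.28% of distal members (1.34 to 3.86), 4.74% of all distal regions and 10.4% of EpH4-only regions (7.003 to 15.1). TEAD letters, bound by the partners of the Hippo effectors Yap and Taz, were found in 8.77% of members (6.72 to 11.4), 9.63% of all distal regions and 18.9% of EpH4-only regions (14.3 to 24.6). ETS letters were searched as CCGGAAG and its variant CCGGAAA, and likewise as ACGGAAG with its variant ACGGAAA. They were found in 8.60% of members (6.56 to 11.2), 6.16% of all distal regions and 4.05% of EpH4-only regions (2.15 to 7.52). Distal regions called in all 4 EpRas libraries held NF-κB letters in 4.96%, TEAD letters in 11.8% and ETS letters in 7.16%. Of these 3 shares, only that of ETS was within the members' interval. RUNX letters (TGTGGTT) were found in 13.7% of members (11.1 to 16.7), 14.1% of all distal regions and 15.8% of EpH4-only regions. Their share was 16.2% in distal regions called in all 4 EpRas libraries. In those called in all 8 libraries it was 17.7%, above the members' interval. CTCF letters, bound by an insulator protein, were found in 3.51% of members (2.28 to 5.36), 5.76% of all distal regions and 1.07% of those called in all 8 libraries.

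The median GC content of the windows was 46.0% in distal members and 46.3% in all distal regions. It was higher in EpH4-only regions (50.0%), and its part in their motif shares was not tested. The FOX share of the members fell to 5.75% (3.39 to 9.59) when peaks under the median score of all lists were left out before merging, against 4.78% of all distal regions and 5.41% of the 37 distal EpH4-only regions in that setting. The E-box share was then 12.4%, against 18.8% and 40.5%.

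**Figure D1:**
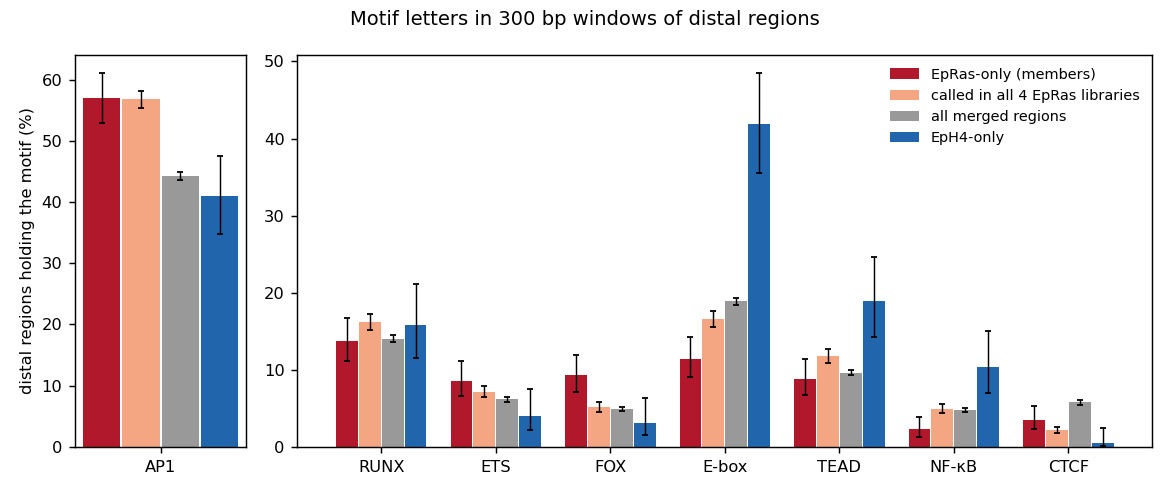
Share of distal regions (%) that held each motif in the 300 bp at the midpoint, for the 570 members, the regions called in all 4 EpRas libraries, all merged regions and the 222 EpH4-only regions. Lines are Wilson 95% intervals, and AP1 has an axis of its own. E-box letters were found in 11.4% of members and 41.9% of EpH4-only regions, FOX letters in 9.30% and 3.15%.

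The same letters were counted in distal regions that were neither members nor EpH4-only, so that the selected regions took no part. Regions called in 1, 2 or 3 libraries of a single line were kept, so these shares are not independent of the selection. With promoters included, 8262, 3317 and 1433 regions were called in 1, 2 and 3 EpRas libraries and in 0 EpH4 libraries. In the reverse direction there were 3489, 1060 and 456. E-box letters were found in 17.98% and 17.96% of such regions in the untreated and 16.6% and 16.7% in the TGF-β-treated EpRas libraries. In EpH4 libraries the shares were 22.3% and 21.5% without and 21.3% and 20.2% with TGF-β. Every EpRas library was thus below every EpH4 library. FOX letters were found in 4.72% to 5.07% in EpRas and 3.70% to 4.33% in EpH4 libraries, and ETS letters in 6.41% to 7.04% and 6.14% to 6.18%, each without overlap. NF-κB letters were found in 4.27% to 4.94% in EpRas and 5.81% to 6.76% in EpH4 libraries, again without overlap, whereas AP1 overlapped with 47.3% to 52.9% and 47.6% to 49.8%. The ranges of the lines did not overlap for 7 of the 14 motifs (50.0%), and for 6 when every list was cut to its 10821 highest-scored peaks. E-box, FOX, ETS and NF-κB were among them in both settings. The libraries of a line shared many regions, and these shares were not tested.

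**Figure D2:**
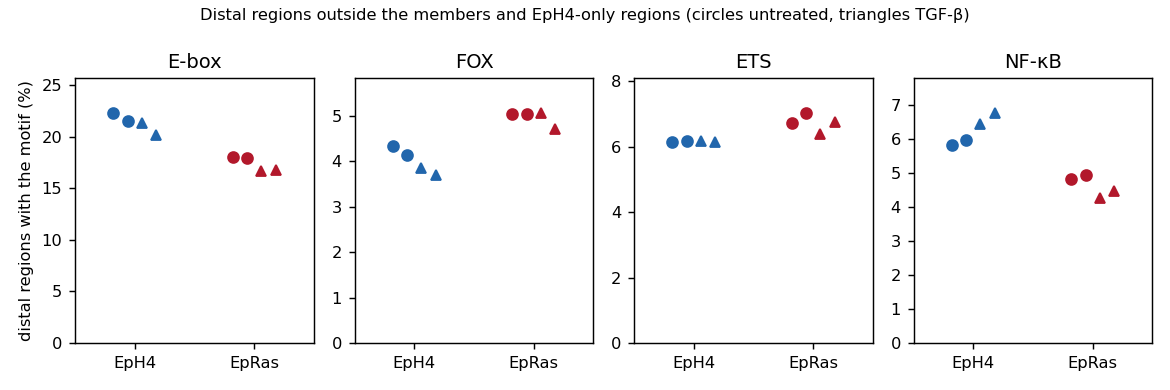
Share of distal regions (%) with E-box, FOX, ETS and NF-κB letters in each of the 8 libraries, after removal of members and EpH4-only regions. Circles are untreated and triangles TGF-β-treated libraries, and in each panel the 4 EpRas and 4 EpH4 libraries do not overlap.

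Within the members the intervals of the motif shares overlapped between score ranks. AP1 letters were found in 59.5% of the 190 distal members with the highest mean score percentile (52.4 to 66.2), 61.6% of the next 190 and 50.0% of the lowest 190 (43.0 to 57.04). FOX letters were found in 10.5%, 8.42% and 8.95%, and E-box letters in 13.7%, 12.1% and 8.42%. Of the distal members, 45.3% held 1 AP1 sequence, 10.4% held 2 and 1.40% held 3 or more. Of their 400 AP1 sequences, 64.3% were within 50 bp of the midpoint, near the 66.2% over all distal regions. Members with AP1 held ETS letters in 8.31% and RUNX letters in 12.3%, and members without AP1 in 8.98% and 15.5%.

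Members were less often promoters than the regions shared by the lines. Of the 736 members, 166 were at promoters (22.6%, 19.7 to 25.7), 312 were in introns (42.4%) and 240 were intergenic (32.6%), with 18 in exons. Promoters made up 31.7% of all regions, 49.7% of regions called in all 8 libraries and 20.7% of EpH4-only regions (16.4 to 25.8). Distal members had a median distance of 42.0 kb from the nearest start site of a protein-coding gene, compared with 33.5 kb for all distal regions and 26.7 kb for EpH4-only regions. When peaks under the median score of all lists were left out, the promoter share of the members was 41.3% (36.5 to 46.3). In that setting the members were not less often promoters than all regions, so this contrast depended on the lower-scored peaks.

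The promoter members resembled promoters in general more than the EpH4-only promoters did. CpG-rich sequence, with an observed to expected CpG ratio of at least 0.6, was found in 56.6% of the 166 promoter members, 60.1% of all promoter regions and 18.97% of the 58 EpH4-only promoters. ETS letters were found in 27.1% of promoter members (20.9 to 34.3), 25.5% of all promoter regions and 6.90% of EpH4-only promoters (2.71 to 16.4). E-box letters were found in 15.1% (10.4 to 21.3), 17.4% and 37.9% (26.6 to 50.8). Of the promoter members, 133 were within 2 kb of a start site of a protein-coding gene, and 33 were at other start sites, among them 13 of lincRNAs and 6 of antisense RNAs.

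Peaks at members were weaker than at shared regions. The unit of the deposited score was not stated, so each peak was ranked within its list, and the percentile is the share of peaks of that list with an equal or lower score. The median percentile of the members was 45.9 and 42.1 in untreated and 64.9 and 46.4 in TGF-β-treated EpRas libraries (replicates 1 and 2), and that of the regions called in all 8 libraries was 80.1, 74.9, 87.8 and 78.8. The value of 64.9 came from the library with the longest list. In each library the median rose step by step with the number of EpH4 libraries that called the region, from the members to the regions called in 1, 2, 3 and 4 EpH4 libraries. These values belong to the calls that selected the members and are given as a description. Only 86 members were at percentile 50 or above in all 4 EpRas libraries and 10 at 75 or above, whereas 211 were under 10 in at least 1 library. Percentiles of the members correlated with r = 0.22 between the untreated and r = 0.43 between the TGF-β-treated replicates, across 736 regions that are not independent.

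**Figure D3:**
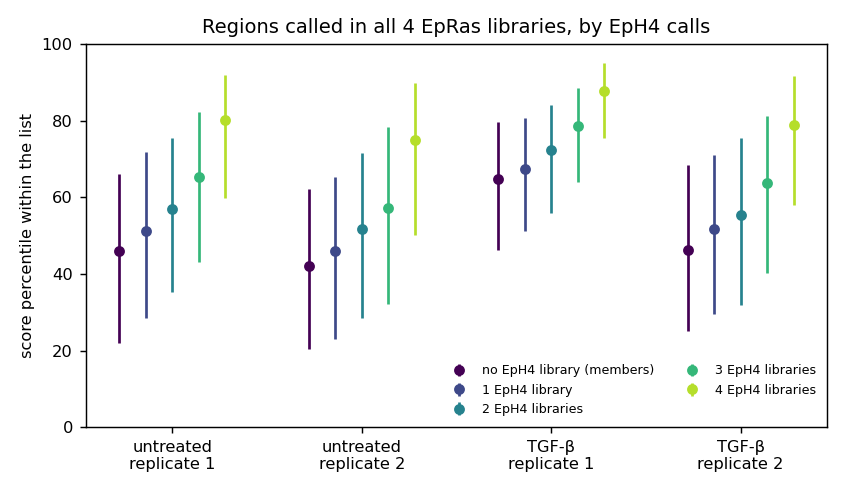
Score percentile within each EpRas list for regions called in all 4 EpRas libraries, by the number of EpH4 libraries that also called them. Points are medians and lines the quartiles over regions. The medians of the members, 42.1 to 64.9, are the lowest of the 5 sets in each library.

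Just outside the selection, 849 regions were called in all 4 EpRas and 1 EpH4 library and 1433 in 3 EpRas and 0 EpH4 libraries. The single EpH4 call was most often in the first TGF-β-treated library (432 regions), which had the longest EpH4 list, and its median percentile there was 38.7. The missing EpRas call was most often in the second untreated library (693 regions), which had the shortest EpRas list. The number of members was accordingly 1429 without the second untreated EpRas library, 1168 without the first TGF-β-treated EpH4 library and 1122 when EpRas TGF-β replicate 2 was left out. The nearest EpH4 peak was at a median of 26.2 kb from a member, 42 members had one within 1 kb, and the nearest region called in all 8 libraries was at a median of 153 kb.

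Members were unevenly spread over the chromosomes. Chromosome 2 held 106 (3.78% of its regions), chromosome 12 held 43 (3.68%), chromosome 4 held 85 (3.54%) and chromosome 15 held 67 (3.21%), compared with 1.98% over all regions. Chromosome 16 held 7 (0.574%) and chromosome 6 held 14 (0.718%). EpH4-only regions were 20 of 2802 regions on chromosome 2, 1 of 1167 on chromosome 12, 16 of 2399 on chromosome 4 and 21 of 2086 on chromosome 15. They were 13 of 1219 on chromosome 16 and 20 of 1950 on chromosome 6, and 280 of 37230 over all regions. Their share was thus larger on chromosomes 16 and 6 than on chromosomes 2, 4 and 12, and on chromosome 15 it was close to that on chromosome 6. On chromosome 5, 24 of the 30 members lay on the centromeric side of its middle, where they were 2.60% of the regions, and 6 on the other side (0.447%).

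Regions outside both sets differed between the lines in the same direction as the members on several chromosomes. They still included regions called in 1, 2 or 3 libraries of a single line, so they are not independent of the selection. Of the regions of a library that were neither members nor EpH4-only, 2.96% to 3.44% were on chromosome 12 in EpRas and 1.35% to 2.10% in EpH4 libraries, and 7.24% to 7.68% and 5.52% to 6.20% were on chromosome 2. On chromosome 6 they were 4.13% to 4.54% in EpRas and 6.12% to 6.79% in EpH4 libraries, and on chromosome 16 2.92% to 3.04% and 3.69% to 4.08%. Of the 9 chromosomes with a member share above 1.98%, all EpRas libraries were above all EpH4 libraries on 6 and below on 0. Of the other 11 they were below on 6 and above on 0.

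The scores of the 4259 shared regions, which hold no member, gave a further measure. On chromosome 12, which held 46 of them, their mean percentile was 77.2 ± 5.89 in EpRas and 57.9 ± 4.47 in EpH4 libraries (SD, n = 4 each), a difference of 19.3 points. The 2 lines did not overlap there (two-sided exact permutation p = 0.0286, which is the lowest value 4 against 4 can give, and 0.114 after adjustment over 20 chromosomes). The differences were 14.0 points on chromosome 15 and 12.8 on chromosome 4 with the same exact p-values, and 5.64 points on chromosome 2 (exact permutation p = 0.171). Chromosomes 18 and 7, with member shares of 2.06% and 2.15%, differed by 17.5 and 15.1 points, again with these lowest exact p-values. Chromosome 11, with a member share of 1.54%, differed by 10.2 points. On the chromosomes with the lowest member shares they were 0.71 points on chromosome 16 (exact permutation p = 0.857) and -6.80 points on chromosome 6 (exact permutation p = 0.229). The difference was above 0 on all 9 chromosomes with a member share above 1.98% (5.64 to 19.3 points) and on 8 of the other 11 (-6.80 to 10.2 points over the 11). Over all chromosomes together the shared regions differed by 6.36 points (exact permutation p = 0.2). Chromosome 2, with the largest member share, was below this value. After Benjamini-Hochberg adjustment 0 of the 20 chromosomes passed 0.05, and 5 had the lowest possible unadjusted p in the exact permutation test. With lists of equal length the difference on chromosome 12 was 7.40 points. Copy number was not measured, and its part in the spread of the members was not tested.

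**Figure D4:**
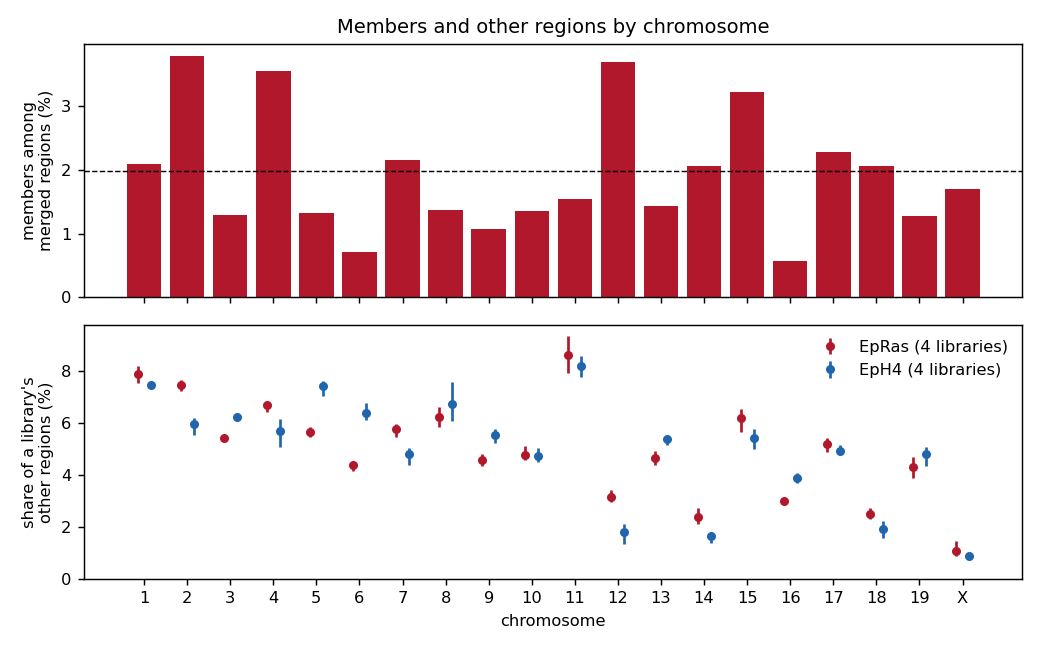
Upper panel, members as a share of merged regions on each chromosome (%), with the share over all regions dashed (1.98%). Lower panel, share of a library's regions outside the members and EpH4-only regions on each chromosome (%), with the mean and the range of 4 libraries per line. On chromosomes 2, 4 and 12 the member share is above the dashed line and the EpRas range above the EpH4 range, and on chromosomes 6 and 16 both are below.

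Of the 10 members with the highest mean percentile, 3 were at one locus on chromosome 9. The member with the highest mean percentile (98.9) was chr9:60848699-60849139 in an intron of *Uaca*, which encodes an ankyrin-repeat and coiled-coil protein linked to apoptosis. It was at percentile 99.5 and 97.4 in untreated and 99.2 and 99.6 in TGF-β-treated EpRas libraries. The next (92.3) was chr9:60782435-60782815, 11.9 kb upstream of *Uaca*, at 98.2, 99.2, 94.5 and 77.1. A further 5 members were within 20 kb of *Larp6*, whose product binds collagen mRNAs, and these were all 5 regions called there. The 7 members lay within 131 kb, and the 1 Mb bin that holds them had 9, the most of any bin.

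EpH4 peaks were also called in this stretch. Between the first and the last of these 7 members, 5 other regions were called in at least 1 EpH4 library. Of these, 2 were called in all 8 libraries. The region at the *Uaca* promoter was at percentiles 59.0, 93.8, 59.6 and 61.8 in EpH4 and 99.3, 99.3, 99.8 and 99.5 in EpRas libraries, without overlap. The intergenic region chr9:60776950-60777435 was at 66.9, 79.7, 55.3 and 9.64 in EpH4 and 97.7, 96.4, 91.9 and 76.8 in EpRas libraries, and there the lines overlapped. The plot of the *Larp6* and *Uaca* stretch shows these calls.

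**Figure D5:**
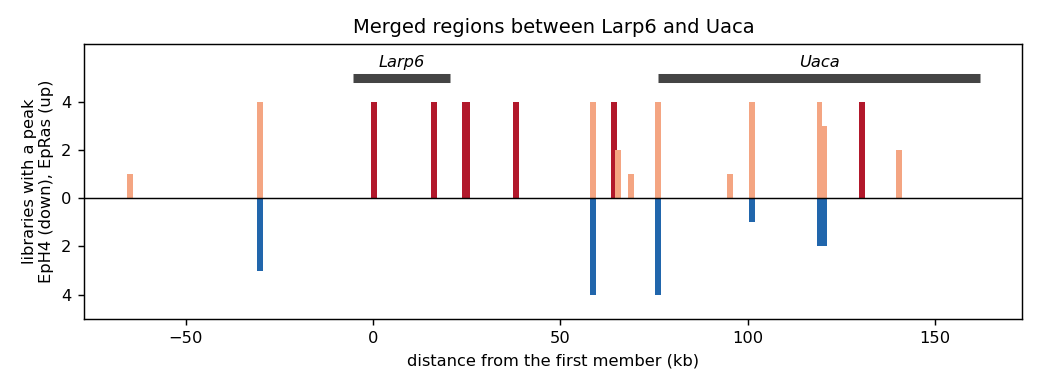
Merged regions around *Larp6* and *Uaca* by distance from the first member (kb), with the number of EpRas libraries that called each (up, members dark red) and of EpH4 libraries (down, blue). Bars at the top are the gene spans. The 7 members stand among 5 regions that were also called in EpH4 libraries.

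Other strongly scored members were spread over the genome. In an intron of *Cemip2*, which encodes a cell-surface hyaluronidase, chr19:21814434-21814887 was at percentiles 90.9, 88.9, 94.9 and 94.2 (untreated replicates 1 and 2, then TGF-β replicates 1 and 2). An intron of *Prkag2*, encoding an AMP-activated kinase subunit, held chr5:24871299-24871641 at 90.5, 93.9, 93.0 and 89.0. Also among the 10 highest were intergenic members 57.2 kb from a start site of *Lpin1* (a phosphatidate phosphatase, chr12:16532401-16532783) and 194 kb from one of *Chd7* (a chromatin remodeler, chr4:8945084-8945512). The remaining members among the 10 highest were in *Mtcl1* (a microtubule crosslinker, chr17:66352223-66352672), in *Sema3a* (a secreted guidance factor, chr5:13364915-13365506), at the *Smpd3* promoter and at the start of the lincRNA *1700036A12Rik* beside *Larp6*. Of these 10 members, 7 held AP1 letters within the region.

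The 5 best-scored promoter members of protein-coding genes were at *Smpd3* (neutral sphingomyelinase), *Aldoc* (the glycolytic enzyme aldolase C), *Ivd* (leucine breakdown), *Cdr2l* and *Polr1b* (a subunit of RNA polymerase I). The *Smpd3* promoter region, chr8:106337868-106338314, was at percentiles 91.0, 76.5, 99.2 and 95.5, and that of *Aldoc*, chr11:78322898-78323215, at 67.1, 96.6, 90.6 and 94.8. The others were at chr2:118861707-118862083 (*Ivd*), chr11:115381702-115381973 (*Cdr2l*) and chr2:129100841-129101127 (*Polr1b*), with mean percentiles of 85.4, 80.3 and 79.9. None of these 5 held AP1 letters. The distal members with the most AP1 letters, 3 each, were in *Mgat5* (a glycosyltransferase that branches N-glycans), near *Rgs17* and in *Mapkap1* (a subunit of the TORC2 kinase complex). Their mean percentiles were 77.7, 66.2 and 62.5.

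Of 21951 protein-coding genes, 756 had at least 1 member within the gene span and 20 kb on each side, 55 had at least 2 and 9 at least 3. After *Larp6*, *Ptprm*, a receptor tyrosine phosphatase of cell junctions, had 5 members among 10 regions. For *Ptprm* 3 of them were within 50.6 kb and no other region was called between. Among the 7 genes with 3 members were *Sema3a*, *Lingo2* and the collagen gene *Col22a1*. Runs of members also lay at *Gm21093* on chromosome 4 and around *Speer4d* and *Gm21149* on chromosome 5, in multicopy gene families where short reads may be placed at more than 1 copy, so these members are uncertain. In all, 53 members lay in 15 runs of 3 or more that were under 100 kb apart, 114 in pairs, and 569 were single.

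Members at genes known for EMT, Ras signaling or related functions were counted in lists. Of 287 genes in 15 lists, 12 had a member, and the 14 members at these loci were 1.23% of the 1135 regions there (0.736 to 2.06), an interval that includes the 1.98% of all regions. EMT transcription factors (0 of 47 regions, upper limit of the interval 7.56%), mesenchymal markers and matrix (0 of 93, 3.97%), the TGF-β pathway (0 of 91, 4.05%), integrins and laminins (0 of 120, 3.10%), EGF receptors and ligands (0 of 49, 7.27%) and mammary identity factors (0 of 38, 9.18%) had none. For Ras genes and MAPK feedback there were 2 of 99 regions (2.02%), for ETS factors 2 of 75 (2.67%), for AP1 factors 1 of 100 (1.00%), for matrix proteases and inhibitors 2 of 95 (2.11%) and for RUNX, NFI and CEBP factors 4 of 78 (5.13%, 2.01 to 12.5). There was 1 of 124 regions for epithelial junction, keratin and splicing genes (0.806%), 1 of 79 for Hippo and TEAD genes (1.27%) and 1 of 46 for growth arrest genes (2.17%). Of the 28 regions at 8 genes the study discussed, 2 were members, at *Cdh1* and *Etv5*. The regions at *Cdh2* were each called in 1 or 2 EpRas libraries and in 0 EpH4 libraries, so none was a member.

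*Cdh1*, which encodes E-cadherin and is the defining epithelial junction gene, held regions of both kinds. The member chr8:106619644-106619954 lay in an intron 16.4 kb downstream of the start site, at percentiles 33.7, 58.4, 85.2 and 40.5 in the 4 EpRas libraries. At 12.8 kb in the same gene, chr8:106616036-106616334 was called in all 4 EpH4 libraries at percentiles 14.8, 74.0, 74.4 and 79.1 and in 0 EpRas libraries. The *Cdh1* promoter region was likewise called in 4 EpH4 libraries, at 60.4, 51.8, 54.3 and 40.8, and in 0 EpRas libraries, and the window at its midpoint held 3 E-box sequences. None of these 3 regions was called in both lines.

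Among ETS factors, *Etv5* had a member in an intron, chr16:22389148-22389499, at percentiles 55.7, 88.5, 85.8 and 46.4, while its promoter region was called in all 8 libraries. *Etv1* had an intronic member, chr12:38843836-38844304, at 65.0, 7.16, 81.5 and 71.7. *Etv4* had no member. Of the feedback inhibitors, *Spred2* had a member at its promoter, chr11:19923967-19924467, at 75.1, 32.2, 51.7 and 48.9, and *Spry1* one 5.12 kb upstream, chr3:37634688-37634958, at 34.4, 68.5, 34.3 and 40.5. These members were spread widely between replicates, and none of these 4 was above percentile 75 in all EpRas libraries.

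*Nfib*, encoding a nuclear factor I protein, had 3 intronic members with mean percentiles of 48.3, 46.4 and 21.0. *Runx1* had 1 at an internal start site, chr16:92697291-92697532, at 45.8, 53.7, 22.1 and 23.7. *Wwtr1*, which encodes Taz, had an intronic member with 1 AP1 sequence, chr3:57504824-57505149, at 77.1, 42.0, 82.9 and 86.9. The metalloprotease genes *Adam12* and *Adam19* had 1 each, with mean percentiles of 72.7 and 57.8, and the cell cycle inhibitor gene *Cdkn1a* had 1 with a mean of 40.8. The member counted for *Mafg* lay at the promoter of its neighbor *Pcyt2*.

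The mean percentile of the members was 45.4 and 42.9 in untreated and 61.3 and 47.3 in TGF-β-treated EpRas libraries, a difference of 10.2 points (two-sided exact permutation p = 0.333, and 2 against 2 libraries cannot give a lower one). Both treated libraries were above both untreated ones. This held for distal members (44.0 and 42.2 untreated, 63.2 and 48.1 treated). At promoter members the groups overlapped (49.9 and 45.4 untreated, 54.9 and 44.7 treated). The regions called in all 4 EpRas libraries, of which 8.44% were members, differed by 8.04 points (exact permutation p = 0.667). The difference of the members was 3.17 points without the first TGF-β-treated library, which had the longest list, and 1.63 points with lists of equal length. At 221 members (30.0%) both treated libraries were above both untreated ones, compared with 27.7% of the 8718 regions called in all 4 EpRas libraries, and at 74 (10.1%) they were below, compared with 9.03%.

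Region by region, limma with Benjamini-Hochberg adjustment on quantile-normalised log2(score + 1) called 0 of the 736 members and 0 of all 8718 regions (0%) at an adjusted p of 0.05. At an unadjusted p under 0.05, limma gave 59 members (8.02%) and 592 of all regions (6.79%). After quantile normalisation the median log2 difference was -0.0249 in members and -0.00723 in all regions. The largest upward differences without overlap were at a member, chr18:78097351-78097706, 25.8 kb from a start site of the urea transporter gene *Slc14a1* on chromosome 18, from percentiles 3.58 and 0.533 to 92.5 and 88.2 (log2 difference 1.56 ± 0.31, SE, adjusted p = 0.562), and at a member in an intron of a noncoding gene 130 kb from *Sox4*, chr13:28823502-28823892, from 22.1 and 0.925 to 92.7 and 91.9 (1.38 ± 0.32, adjusted p = 0.679). A second member 2.94 kb upstream of *Slc14a1*, named after its values were seen, was at 13.9 and 5.37 without and 85.6 and 71.1 with TGF-β.

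The largest downward difference was at a member in a coding exon near *Ccl21a*, chr4:42792059-42792506, from percentiles 84.6 and 76.4 to 2.48 and 3.02 (log2 difference -1.43 ± 0.31, SE, limma adjusted p = 0.679). The region near *Ccl21a* lies in a chemokine gene cluster with near-identical copies and is uncertain. When scores were centred on the library median in place of quantile normalisation, limma called this member (adjusted p = 0.0254) and 1 further region that was not a member.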

How the data were processed

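FAIRE-seq had been performed on untreated and TGF-β3-treated EpH4 and EpRas cells (2 libraries per group). According to the study, the authors sequenced on an Ion Proton, aligned reads to mm10 by bowtie2 and identified peaks by MACS2 2.0.9. The deposited lists, 1 for each library, gave each peak's position and a score, which the authors' peak caller assigned and whose unit was not stated, so scores were used only as ranks or, for limma, as log2(score + 1). Control use and duplicate handling were not given in the sources used here.

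Members, gene lists, motifs and named regions were chosen with earlier results of these data known. Named were the 10 best-scored members, the 5 best-scored promoter members of protein-coding genes, members at loci of the fixed lists, the genes with most members (5), the 3 distal members with most AP1 letters, and the 2 largest rises and falls with TGF-β, of which 1 is not reported here. Promoters were within 2 kb of a GENCODE vM21 (basic) start site, motifs were searched as fixed letters on both strands in 300 bp of GRCm38.p6, and NF-κB, CTCF and NF1 by a degenerate consensus. Beside the letters given above, they were TGACGTCA (CRE), TTACGCAA or TTGCGCAA (CEBP), AACCGGTT (GRHL), GCCNNNGGC (AP2) and GGGCGG (SP/KLF). Shares have Wilson 95% intervals. Tests were exact permutations and limma 3.58.1 (R 4.3.3), tested on simulated data. The replicate number was a block only in an alternative, and replicates were biological. TGF-β was compared over 2 against 2 libraries, and the lines over 4 against 4, treated and untreated together. Depth was unknown, so precision is limited by the number of libraries.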

Additional observations from a re-analysis of the deposited data

How the results depend on the processing

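The number of members depended on the lists. It was 279 with equal list lengths, 385 with higher-scored peaks only, 724 without regions that were mostly repeats, and 782 to 1429 when 1 library was left out (1168 and 1122 when this was the first treated EpH4 or the second treated EpRas library). The promoter share was 41.3% with higher-scored peaks, 19.6% within 1 kb, 18.1% with protein-coding start sites and 22.1% to 27.7% with 1 library left out. With higher-scored peaks it was not below the promoter share of all regions in that setting. The AP1 share was 61.3% with equal lists, against 47.0% of all distal regions in that setting. With higher-scored peaks it was 57.5% (51.0 to 63.8), against 50.9%, a smaller difference. It was 52.8% to 58.1% with 1 library left out, and 59.7% without chromosomes 2, 4, 12 and 15 (added after seeing the data, like the repeat, FOX and E-box alternatives). With equal lists FOX letters were in 10.1% of distal members and 2.38% of EpH4-only regions, and E-box letters in 13.4% and 35.0%. With higher-scored peaks FOX letters were in 5.75% and 5.41%, so that this difference was not kept. In 500 bp windows the members' shares were 12.6% and 19.5%.

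The TGF-β difference of the members was 3.17 to 17.2 points with 1 library left out and 10.2 points with the replicate block (exact p = 0.500). Same-numbered EpRas replicates did not deviate together (r = 0.026 over 8718 regions). limma called 2 regions after median centring, 0 to 1 with 1 library left out and 0 with the replicate block. The chromosome test gave 0 calls in 11 alternatives (smallest adjusted exact p 0.0714, with equal lists, and 0.192 with the replicate block). With equal lists the difference fell from 19.3 to 7.40 points on chromosome 12, whose adjusted exact p was above that smallest value. It fell from 5.64 to 0.941 points on chromosome 2, from 14.0 to 10.4 on chromosome 15 and from 12.8 to 9.996 on chromosome 4. On chromosome 6 it went from -6.80 to -14.6 points. The difference on chromosome 16 changed sign, from 0.71 to -4.94 with equal lists and -1.92 to 3.796 points with 1 library left out. Members at list loci were 38 within 100 kb and 6 with equal lists.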
